A study of Mus musculus with 2 samples.

Results

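Notch signalling was followed through 10 of its genes in mouse blastocysts: the receptor genes Notch1, Notch2 and Notch3, the ligand genes Jag1, Jag2 and Dll1, the nuclear effector genes Rbpj and Maml1, and the HES genes Hes1 and Hes6. They were taken by symbol, and all 10 were found among the 19559 genes of the deposited table. The study set 1 library of whole blastocysts at stage E3.75 beside 1 library of inner cell masses (ICMs) of the same age, freed of their outer layer by immunosurgery, in which antibody and complement lyse the outer cells. The embryos of both libraries came from B6CBAF1 females mated with CD-1 males, and the labels name no genetic change or treatment. Not given in the sources used here is how many embryos were pooled. With 1 library per kind there was no spread between samples and no test of the condition. Intervals are 95% counting intervals, which cover counting error only, since reads from amplified cDNA are not independent molecules.

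Notch receptors are single-pass membrane proteins that bind Jagged or Delta ligands on a neighbouring cell. Binding exposes the receptor to an ADAM protease and then to gamma-secretase, and the freed intracellular domain joins the DNA-binding protein RBPJ and the scaffold MAML to switch on genes such as those of the HES and HEY repressors. Without that domain RBPJ can recruit co-repressors to the same sites. In the mouse blastocyst the pathway is best known in the trophectoderm, the outer epithelium that forms the placenta, where it acts together with the Hippo effector TEAD4 on Cdx2.

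The sequence that RBPJ recognises is illustrated by the promoters of 3 HES and HEY genes, and binding was not measured. RBPJ binds a core with the letters GTGGGAA, which was searched on both strands (TTCCCAC on the other) in the 250 bases before each start site of the RefSeq promoter table, build GRCm38.p6. This build is not that of the deposited files, and nothing measured was placed by its coordinates. The core was present in 5.42% of all 32851 promoters of this length. Of the 79 genes of a Notch pathway list, 63 had a promoter in the table, and 7 of the 86 promoters of these genes (8.14%) held the core, each in a different gene. Among the 5 HES, HEY and feedback genes with an entry, 3 held it: Hes5 (chr4:154960673-154960922, plus strand) at 226 and 83 bases before the start, Hes7 (chr11:69120203-69120452, plus strand) at 180 bases and Hey2 (chr10:30842784-30843033, minus strand) at 207 bases. None of the 9 principal genes with an entry held it in this window, and the start of Hes1 was not analysed here. Capitals mark the core in each sequence, written 5′ to 3′ on the strand of the gene. The sequences are given because these HES and HEY genes held the core, and their reads are given with the HES and HEY genes.
Hes5: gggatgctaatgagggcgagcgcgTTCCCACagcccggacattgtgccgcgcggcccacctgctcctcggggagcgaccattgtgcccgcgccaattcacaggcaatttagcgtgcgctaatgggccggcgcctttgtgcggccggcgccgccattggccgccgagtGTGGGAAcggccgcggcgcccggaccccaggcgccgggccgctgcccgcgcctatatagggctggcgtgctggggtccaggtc
Hes7: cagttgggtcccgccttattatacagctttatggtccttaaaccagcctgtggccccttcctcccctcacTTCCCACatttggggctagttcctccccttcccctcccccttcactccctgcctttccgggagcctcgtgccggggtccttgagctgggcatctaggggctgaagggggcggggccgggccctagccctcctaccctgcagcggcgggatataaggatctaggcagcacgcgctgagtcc
Hey2: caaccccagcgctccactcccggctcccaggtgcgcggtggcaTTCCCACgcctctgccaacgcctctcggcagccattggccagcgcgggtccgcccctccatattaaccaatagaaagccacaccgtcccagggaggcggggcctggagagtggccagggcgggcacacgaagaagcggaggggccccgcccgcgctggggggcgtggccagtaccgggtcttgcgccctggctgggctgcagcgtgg

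Reads on the table's genes came to 9271198 for whole blastocysts and 4125479 for ICMs. RPKM, the read count divided by gene length and by a library total, is the authors' deposited unit. The total behind the ICM RPKM was 0.842 of that of the whole blastocyst, while the listed reads stood at 0.445, so RPKM of most genes was lower in the ICM. Differences are log2((ICM RPKM + 1)/(whole-blastocyst RPKM + 1)), which understates the change of low genes, over the 8981 genes whose RPKM was at least 1 in either library. Over the 3013 genes whose RPKM was at least 5 in both, the median difference was -0.66 and the median ratio of RPKM without a pseudocount 0.615. Values relative to these are called centred. A centred difference keeps the shrinkage that the pseudocount gives to low genes. The centred ratio without a pseudocount, an alternative chosen after seeing the data, is therefore also given for Notch2, Jag2, Rbpj and Maml1. It is given for counts over gene lists as well. Folds of the other genes named below are as deposited and not centred. The ICM label was checked against markers. All 10 epiblast markers had ICM reads, and their summed RPKM was 43.5 in whole blastocysts and 300.9 in the ICM. Of these, Nr0b1 had 0 and 337 reads and Bmp4 0 and 608, although whole blastocysts contain the ICM. The reason for these missing whole-blastocyst reads was not tested. The 10 primitive endoderm markers summed to 80.3 and 530.5, of which Sparc alone gave 24.8 and 316.4. Of the 9 that reached an RPKM of 1, 8 were past 2-fold higher in the ICM, while Gata6 was lower there (31.2 and 22.7). The 14 trophectoderm markers summed to 2801 and 119.7, of which Krt18 alone gave 1418 and 29.4. The ICM library kept 4.28% of their summed RPKM, and the median over the 14 markers was 6.80%. Elf5 alone of them had no ICM read. Of the markers of blood and immune cells, 2 of 8 found reached an RPKM of 1, and of cumulus and uterine cells 4 of 9 did, with Cyp11a1 at 324 and 0 reads and Cyp19a1 at 0 and 91.

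Most of the 10 genes were near the limit of detection, and 3 of them carried nearly all of the reads. Notch2, Rbpj and Maml1 reached an RPKM of 1, and the other 7 genes stayed below it in both libraries. Rbpj made up 39.2% and 44.0% of the reads of the 10 genes in whole blastocysts and the ICM, Maml1 30.7% and 40.5%, and Notch2 26.8% and 12.2%. Hes6 had no read in either library, and Dll1 had none in the whole blastocyst. The 10 genes together took 158.7 reads of every 1000000 listed ones in whole blastocysts and 360.4 in the ICM.

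**Figure D1:**
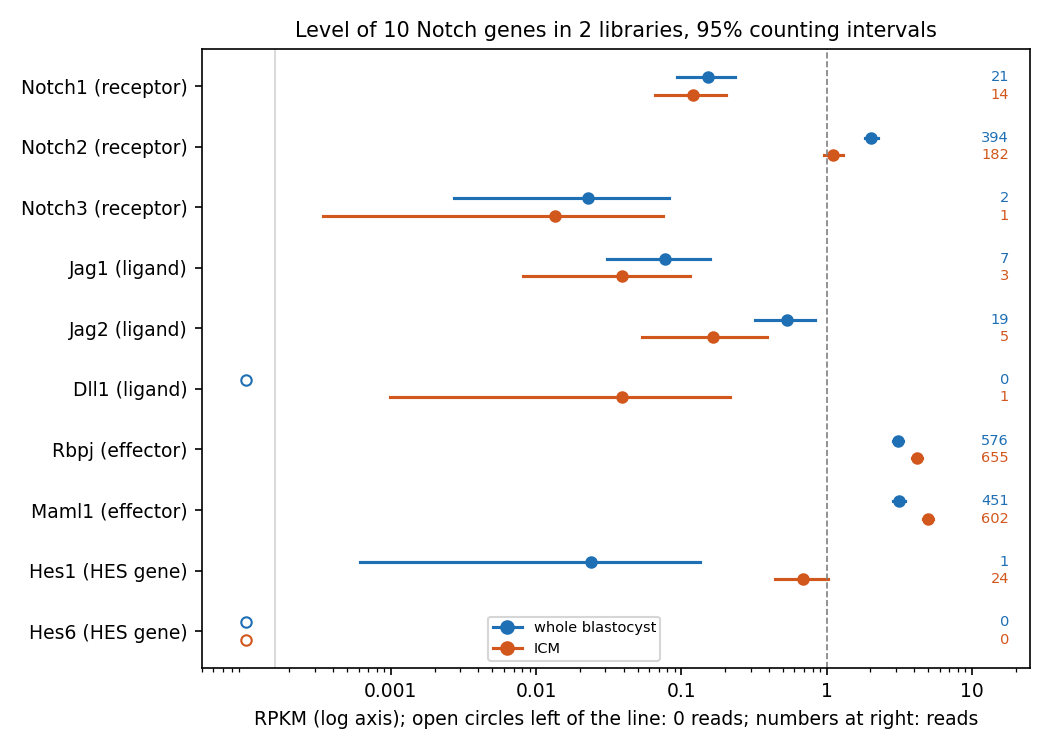
RPKM (log axis) of the 10 genes in the whole-blastocyst library and the ICM library, with exact Poisson 95% counting intervals as lines, genes without a read as open circles at the left and read numbers at the right. Notch2, Rbpj and Maml1 alone lie above the dashed line at an RPKM of 1, and Hes1 has the widest gap between the libraries among genes read in both.

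Of the receptors, Notch2 was the main one read. It had 394 reads and an RPKM of 2.03 (1.83 to 2.24) in the whole blastocyst, and 182 reads and an RPKM of 1.11 (0.957 to 1.29) in the ICM. Its level was the higher one in the whole blastocyst, and the counting intervals do not overlap. The ICM value was 54.8% of the whole-blastocyst value, a 1.82-fold lower RPKM (1.53 to 2.19) and a difference of -0.52. Of all genes tested, 61.6% had a lower difference. Centred, its ratio was 0.892 without a pseudocount, and scaled to the listed reads it was 1.04, so these scalings placed Notch2 near equality. With the pseudocount of 1 the centred difference was 0.14, on the other side of 0. Trophectoderm markers were lower by far more in the same library, each of the 14 keeping between 0 and 14.3% of its whole-blastocyst RPKM. In bulk samples, fewer cells of a type and less RNA per cell cannot be told apart, and the part of the lost outer layer in the Notch2 value was not tested.

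Notch1 had 21 reads (RPKM 0.152) in whole blastocysts and 14 reads (0.120) in the ICM. The ratio of ICM to whole blastocyst was 0.791 (0.372 to 1.63), so no difference was detectable at this depth. Notch3 rested on 2 and 1 reads, and its ratio of 0.593 had an interval from 0.0101 to 11.4. Notch4, which is not among the 10 genes, had no read in either library. Notch2 thus made up 92.1% of the summed receptor RPKM in whole blastocysts and 89.3% in the ICM.

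The ligands were scarce in both libraries. Of the 3 principal ligand genes Jag2, a Jagged ligand, was read most, with 19 reads in whole blastocysts and 5 in the ICM, an RPKM of 0.531 (0.320 to 0.829) and 0.166 (0.0539 to 0.387). The whole-blastocyst level was the higher one as deposited, although the intervals of the levels overlap. Its deposited RPKM was 3.20-fold lower in the ICM (1.16 to 10.97). Centred, the ratio was 0.508, and scaled to the listed reads 0.591, both without a pseudocount. The centred difference with the pseudocount was 0.26, on the other side of 0. No interval was computed for the rescaled ratios, so whether Jag2 differs on those scales was not tested. Of the 9419 genes with at least 19 whole-blastocyst reads, 1433 (15.2%) likewise had at most 5 ICM reads. Set against Notch2 within each library, Jag2 stood at 0.262 of the receptor's RPKM in whole blastocysts and 0.149 in the ICM. The change of that quotient, 0.570 (0.164 to 1.61), had an interval that includes 1. The gene length behind RPKM, relative to the longest GENCODE transcript, was 0.395 of that of the median gene for Jag2 and 1.04 for Notch2. The level of the quotient is therefore uncertain, while its change does not depend on the lengths.

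Jag1 had 7 and 3 reads (RPKM 0.0769 and 0.0391), and its ratio of 0.509 had an interval from 0.0849 to 2.23. Dll1, a Delta ligand gene, had 0 reads in whole blastocysts and 1 in the ICM. Both counts lie under a floor of 3 reads, which for Dll1 would be an RPKM of 0.0979 in whole blastocysts and 0.116 in the ICM, so no fold is given. Among the 6 other ligand genes of the pathway list, Dll3 had 1 and 0 reads, Dner, an atypical ligand gene, 0 and 1, and Cntn1, which encodes the adhesion protein contactin, 0 and 16. Dll4, Dlk1 and Dlk2 had no read in either library. The 9 ligand genes together reached a summed RPKM of 0.668 in whole blastocysts and 0.441 in the ICM, against 2.20 and 1.25 for the 4 receptor genes.

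The nuclear effectors went the other way from Notch2 as deposited. Rbpj, the DNA-binding protein of the pathway, had 576 reads and an RPKM of 3.09 (2.84 to 3.35) in the whole blastocyst, and 655 reads and an RPKM of 4.17 (3.86 to 4.50) in the ICM. The ICM level was higher, with no overlap of the counting intervals. The ratio was 1.35 (1.20 to 1.51) and the difference 0.34, above that of 83.1% of all genes tested. The mouse RefSeq table lists 3 Rbpj pseudogenes, so reads of this gene are uncertain where the authors' counting could split them. Maml1, the scaffold that joins RBPJ and the receptor domain and recruits acetyltransferases, had 451 reads and an RPKM of 3.14 (2.86 to 3.44) in the whole blastocyst, and 602 reads and an RPKM of 4.97 (4.58 to 5.39) in the ICM. Its level too was the higher one in the ICM. The ratio was 1.58 (1.40 to 1.79) and the difference 0.53, above that of 85.8% of all genes tested.

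None of the 3 genes tested was past 2-fold in either direction as deposited. Of all genes tested, 8.96% were past 2-fold higher in the ICM and 44.0% past 2-fold lower. By the counting interval alone, Rbpj and Maml1 lay above a ratio of 1 and Notch2 below it, but so did 18.6% and 70.4% of all genes tested. The median difference of the 3 genes was 0.34, and that of all genes tested was -0.84. Centred, Maml1 had a ratio of 2.58 and Rbpj 2.20 without a pseudocount, both past 2-fold. With the pseudocount of 1 the centred differences were 1.19 for Maml1, past 2-fold, and 0.996 for Rbpj, just inside it. Scaled to the listed reads, both were past 2-fold higher with or without the pseudocount. Over all genes tested, 16.9% were past 2-fold higher after centring and 18.7% by the centred ratio without a pseudocount. Rbpj and Maml1 were higher in the ICM under each scaling tried, whereas Notch2 was on either side of equality.

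**Figure D2:**
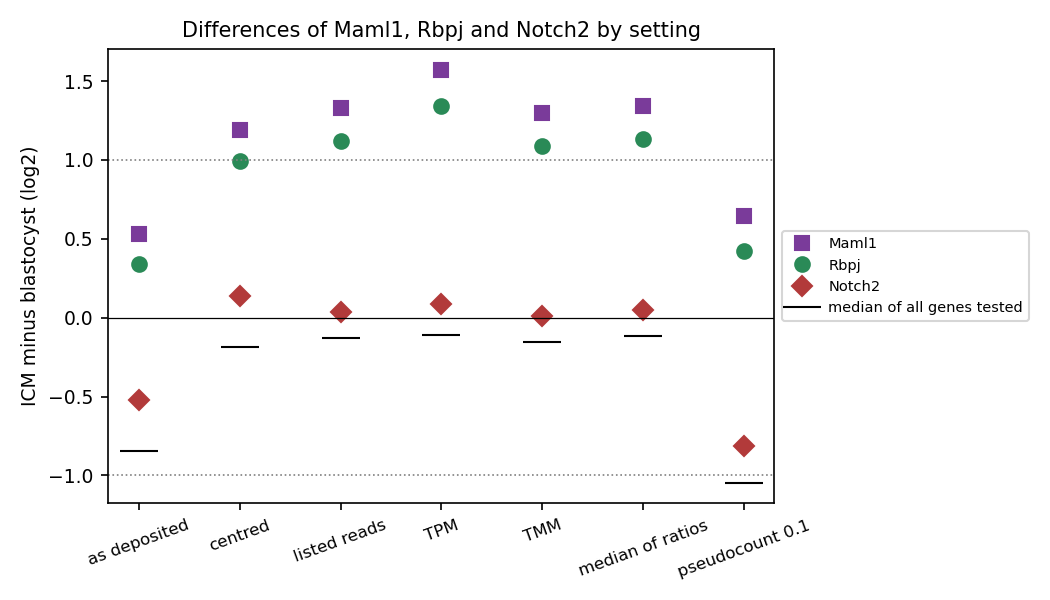
Difference between the ICM and the whole blastocyst (log2 scale) of Maml1, Rbpj and Notch2 as deposited, under 5 other scalings, each with a pseudocount of 1, and as deposited with a pseudocount of 0.1, with the median of all genes tested as a dash and 2-fold as dotted lines. Notch2 is at -0.52 as deposited and between 0.01 and 0.14 under the other scalings, while Rbpj and Maml1 stay above 0 in each column.

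A quotient of 2 genes within a library does not depend on the scaling between libraries. The RPKM of Notch2 was 0.656 of that of Rbpj in whole blastocysts and 0.267 in the ICM, a change of the quotient to 0.406 of its value (0.328 to 0.503). Maml1 stood at 1.55 and 4.47 times Notch2, a 2.89-fold change (2.32 to 3.602). Rbpj and Maml1 therefore differed between these 2 libraries by another factor than Notch2. Maml1 against Rbpj changed 1.17-fold (0.991 to 1.39), an interval that includes 1.

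By level, Maml1 came first in both libraries, followed by Rbpj and then Notch2. The intervals of Maml1 and Rbpj overlap in whole blastocysts and not in the ICM. In the whole blastocyst Jag2, Notch1 and Jag1 followed, and Hes1 and Notch3 were lowest among genes with a read. In the ICM Hes1 came next after Notch2, ahead of Jag2 and Notch1. The order rests on the gene lengths behind RPKM (not given in the sources used here). With the longest GENCODE M21 transcript of each symbol as the length, an alternative chosen after seeing the data, Rbpj came before Maml1 in both libraries and Notch1 before Jag2 in the ICM, and Notch2 and Hes1 kept their places.

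The HES genes, some of which are transcriptional targets of the pathway, were barely read. Hes1, a repressor of the basic helix-loop-helix type, had 1 read in the whole blastocyst (RPKM 0.0240, 0.000609 to 0.134) and 24 reads in the ICM (RPKM 0.685, 0.439 to 1.02). The ICM level was the higher one, and the intervals do not overlap. The ratio was 28.5, with a counting interval from 4.65 to 1172 because of the single whole-blastocyst read. Whole blastocysts also contain the ICM, and whether the libraries differ in more than the outer layer was not tested. The ratio is therefore not read as enrichment in ICM cells. Hes1 did not reach an RPKM of 1, so it is not among the genes tested. Of the 7573 genes with at least 24 ICM reads, 266 (3.51%) likewise had at most 1 read in the whole blastocyst. Against Rbpj within each library, its quotient changed 21.1-fold (3.41 to 869). Hes6, a HES protein known to oppose Hes1, had no read, which allows up to 0.324 reads of every 1000000 listed ones in whole blastocysts and 0.727 in the ICM (a floor of 3 reads).

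The other HES, HEY and feedback genes were as scarce. Of the 10 HES, HEY and feedback genes of the pathway list, none reached an RPKM of 1, and 6 had no read in either library: Hes2, Hes3, Hes5, Hes6, Hes7 and Heyl. Of the 3 genes whose promoters are printed, Hes5 and Hes7 are among these 6, and Hey2 had 0 and 5 reads. Hey1 had 14 and 13 reads (RPKM 0.182 and 0.201), a ratio of 1.10 (0.477 to 2.53). Nrarp, a feedback inhibitor that binds the receptor's intracellular domain, had 19 reads in whole blastocysts and 1 in the ICM, opposite to Hes1. Its RPKM was 16.0-fold lower in the ICM (2.54 to 665). Of the 9419 genes with at least 19 whole-blastocyst reads, 946 (10.04%) likewise had at most 1 in the ICM.

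The rest of the pathway was read through a list of 79 genes that includes the 10. All 79 were found, 3 of them under older symbols, and 37 reached an RPKM of 1. Of these 37, 4 were past 2-fold higher in the ICM (10.8%) and 13 past 2-fold lower (35.1%), beside the 8.96% and 44.0% of all genes tested. The median difference was -0.52, beside -0.84 for all genes tested. Centring with the pseudocount gave 9 of the 37 higher and 5 lower. Of all 8981 genes tested it gave 1516 (16.9%) higher and 1838 (20.5%) lower, so the counts over all genes shifted too. By the centred ratio without a pseudocount, 10 were higher (27.0%) and 12 lower (32.4%), beside 18.7% and 34.7% of all genes tested.

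**Figure D3:**
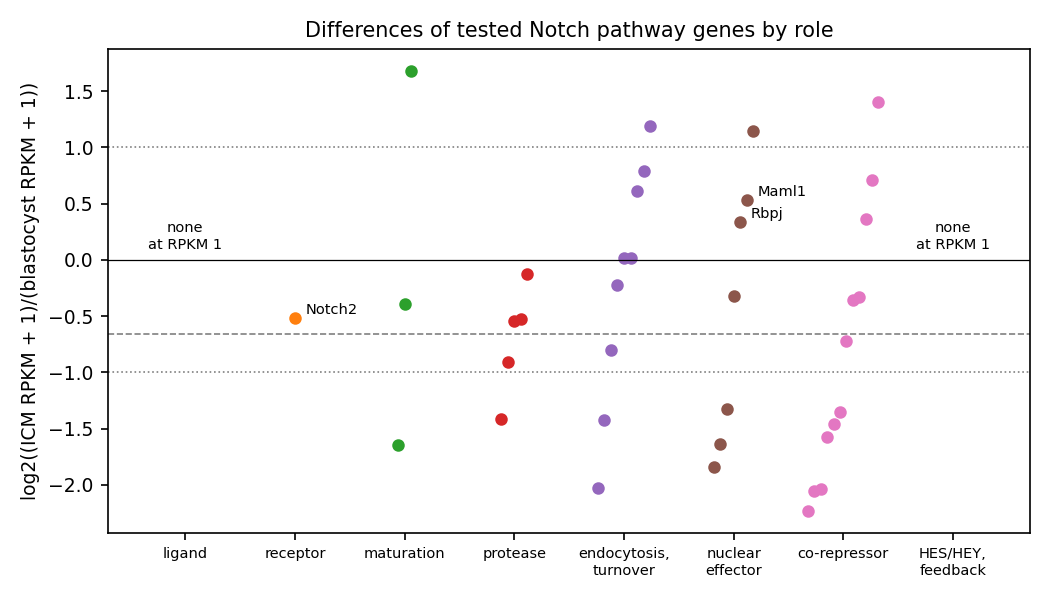
Difference of each of the 37 pathway genes whose RPKM was at least 1 in either library, 1 point per gene, grouped by role, with 2-fold as dotted lines and the median shift of -0.66 as a dashed line. No ligand and no HES, HEY or feedback gene reached that level. Each role from maturation to co-repressors holds at least 1 gene past 2-fold lower, where 44.0% of all genes tested lie. Each of these roles except the proteases also holds 1 gene past 2-fold higher, beside 8.96% of all genes tested.

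The proteases that cut the receptor were read far above the receptor itself. Adam10, the main protease of the first ligand-dependent cut, had 2114 and 1623 reads and an RPKM of 21.1 and 19.2 (ratio 0.911, 0.854 to 0.973). Adam17, a related protease, had an RPKM of 20.4 and 10.4. Of the gamma-secretase genes, Ncstn, the nicastrin subunit, had 97 and 12 reads and was 6.81-fold lower in the ICM (3.73 to 13.6). Aph1a had no read, and Aph1b and Aph1c, which are similar in sequence, had 0 and 2 and 55 and 2 reads, so how their reads were assigned is uncertain. Of the 5 protease genes tested, 1 was past 2-fold lower and none was past 2-fold higher, beside 44.0% and 8.96% of all genes tested.

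Enzymes that process the receptor in the secretory pathway lay on both sides. Poglut1 (listed under the older symbol Ktelc1), which adds glucose to the receptor's EGF repeats, had 286 and 904 reads and was 3.752-fold higher in the ICM (3.28 to 4.30). Furin, the convertase that cleaves the receptor on its way to the surface, had 349 and 40 reads and was 7.35-fold lower (5.29 to 10.5). Pofut1, which adds fucose to the same repeats, stayed below an RPKM of 1 with 137 and 29 reads. The fringe genes Lfng and Mfng had no read, and Rfng had 57 and 26.

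Ligand endocytosis and receptor turnover held 9 tested genes, 1 past 2-fold higher (11.1%) and 2 past 2-fold lower (22.2%, beside 44.0% of all genes tested). Mib1, the ubiquitin ligase that drives ligand uptake in the sending cell, had 88 and 181 reads and was 2.44-fold higher in the ICM (1.88 to 3.19). Its RPKM of 8.43 and 20.6 rests on a gene length that, relative to its longest GENCODE transcript, was 0.0576 of that of the median gene, so its level cannot be set beside other genes. The endocytic adaptor gene Epn1 had 489 and 84 reads and was 4.90-fold lower (3.88 to 6.26), and Itch, a ligase for the receptor, with 3399 and 1007 reads was 2.84-fold lower (2.65 to 3.05). Nedd4, another ligase, had an RPKM of 22.9 and 23.2. Numb, which antagonises Notch in asymmetric divisions, had 45 and 72 reads, and its relative Numbl 67 and 136, both within 2-fold on the scale with the pseudocount.

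Among the partners of RBPJ, coactivators and co-repressors were on both sides. Of 7 tested effector and coactivator genes, 1 was past 2-fold higher (14.3%) and 3 past 2-fold lower (42.9%), near the 8.96% and 44.0% of all genes tested. Kat2a, an acetyltransferase gene, was 3.41-fold higher in the ICM (2.24 to 5.31) with 31 and 89 reads, and its paralogue Kat2b was 12.2-fold lower (6.82 to 24.1) with 174 and 12. Crebbp, which encodes the acetyltransferase CBP, was 4.15-fold lower (3.51 to 4.94), and Snw1, which encodes SKIP, a partner of RBPJ, 3.99-fold lower (3.42 to 4.69). The MAML relatives of Maml1 were near 0, Maml2 with 1 and 0 reads and Maml3 with 17 and 0.

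The 12 tested co-repressor genes had a median difference of -1.03, beside -0.84 for all genes tested, with 6 past 2-fold lower and 1 past 2-fold higher (8.33%). These shares too were near those of all genes tested, 44.0% and 8.96%. Spen, which encodes an RBPJ-bound co-repressor, had 213 and 4 reads and was 44.9-fold lower in the ICM (17.3 to 166). The Groucho gene Tle3 was 4.48-fold lower (3.59 to 5.64), its relative Tle4 4.62-fold (4.18 to 5.11) and Aes, a short Groucho gene, 3.82-fold (2.71 to 5.50). Kdm5a, a histone demethylase gene, was 4.99-fold (4.61 to 5.40) and Ctbp1 4.97-fold (3.34 to 7.64) lower. Others were higher in the ICM: L3mbtl3, which encodes an RBPJ-binding repressor, with 220 and 541 reads and a ratio of 2.92 (2.49 to 3.43), the Groucho gene Tle1 with 50 and 99 reads and a ratio of 2.35 (1.66 to 3.37), and the co-repressor gene Ncor1 with 270 and 308 reads and a ratio of 1.35 (1.15 to 1.60). With the pseudocount, Tle1 and Ncor1 were within 2-fold. Hdac2, a deacetylase gene of many complexes, had the highest RPKM of the whole list, 245.1 and 148.5.

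**Figure D4:**
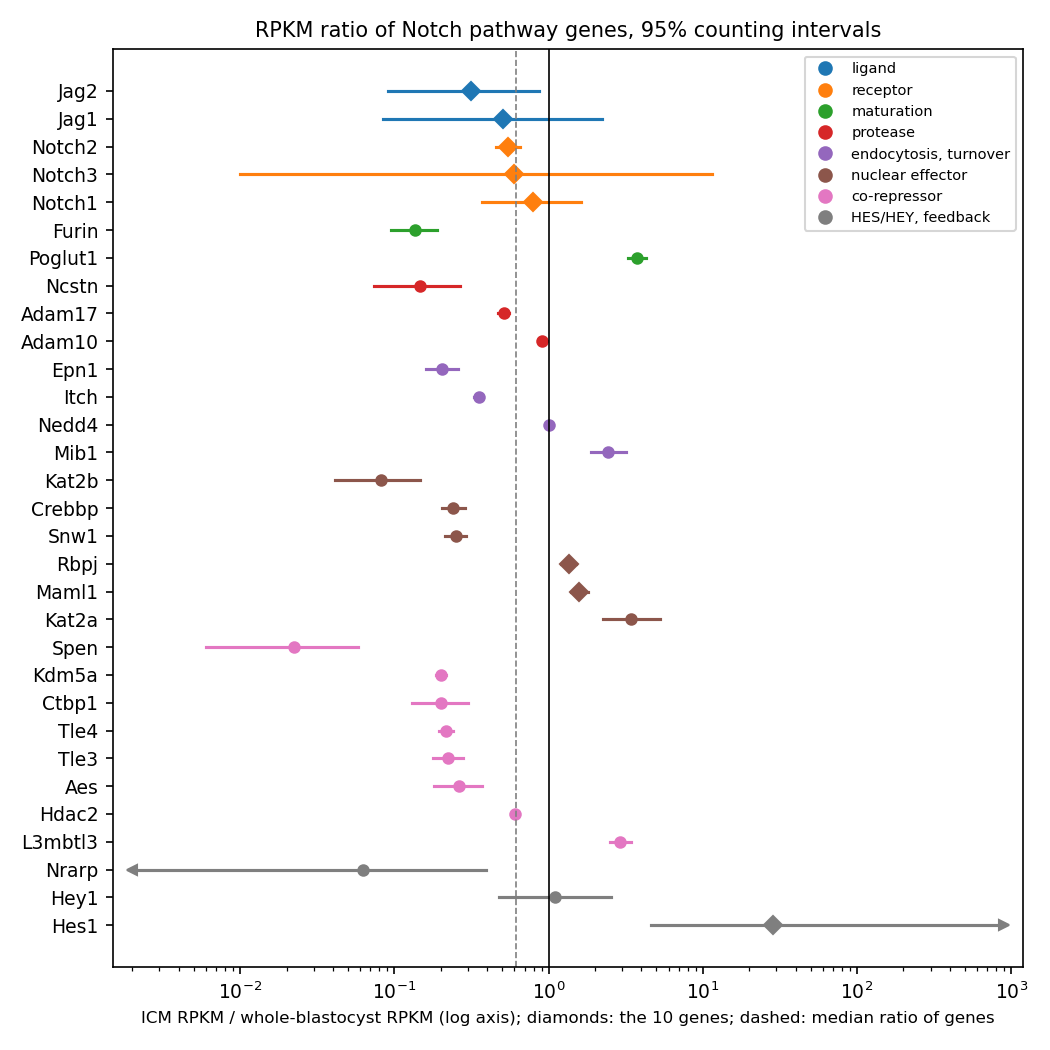
RPKM in the ICM divided by RPKM in the whole blastocyst (log axis) for the Notch genes with reads in both libraries and for the other pathway genes named by rule, with exact 95% counting intervals as lines and the 10 principal genes as diamonds (arrows: interval goes on). The solid line marks equal RPKM and the dashed line the median ratio, 0.615, of all genes whose RPKM was at least 5 in both. Notch2 lies left of the dashed line at 0.548, Rbpj and Maml1 lie to the right of both lines, and Hes1 is farthest right at 28.5.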

How the data were processed

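RNA was measured in 1 whole-blastocyst and 1 ICM library. RNA was isolated by PicoPure, amplified by NuGEN Ovation and put into SOLiD fragment libraries, per the labels' protocols. The authors deposited read counts per gene, whole numbers without normalization, and RPKM values per gene, scaled to a library total that was not the sum of listed reads. The submitters' processing notes name mm9 as genome build. Not given in the sources used here are aligner, annotation, strand and the handling of multiply mapped reads.

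The 10 genes and the lists were chosen with earlier results of these data known. Named are the 10 genes, other list genes past 2-fold with 50 or more reads in at least 1 library, the 2 of highest mean RPKM per role, and the leading markers; other names were chosen after their values were seen. Some list genes are counted but not reported by name. Genes whose RPKM was at least 1 in either library were tested against a 2-fold threshold, with a pseudocount of 1. Ratios carry exact conditional (Clopper-Pearson) 95% intervals, levels exact Poisson ones, and quotients the conditional odds ratio interval. No count model could be fitted with 1 library per group, and no p-value was computed. Python 3.11.15, scipy 1.17.1 and edgeR 4.0.16 (TMM factors only) were used. The computations were tested on simulated counts. GENCODE M21 and RefSeq GRCm38.p6 served for names, transcript lengths and promoters only.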

Additional observations from a re-analysis of the deposited data

How the results depend on the processing

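Among the 3 principal genes with an RPKM of at least 1, the count at least 2-fold higher in the ICM was 0 as deposited, 1 after centring, and 2 when scaled to the listed reads, as TPM, with TMM factors or with median-of-ratios size factors. It was also 2 by the centred ratio, and by the ratio scaled to the listed reads, without a pseudocount. Their median difference of 0.34 became 1.00 (0.996), 1.12, 1.34, 1.09 and 1.13 in the same order, and -0.013 over the 9 genes with a read when the filter was dropped. None of the 3 was past 2-fold lower under these settings or with a pseudocount of 0.1, and none reached an RPKM of 5, so that filter gave no value. Of the 7 genes outside the filter, Jag2 ranged from -1.25 with a pseudocount of 0.1 to 0.26 after centring. With the pseudocount of 1, Hes1 was at 0.72 as deposited and past 2-fold higher under each other scaling (1.15 to 2.90). With a pseudocount of 0.1 it was at 2.66 as deposited, and its deposited ratio without a pseudocount was 28.5. For the pathway list, the 4 genes at least 2-fold higher became 9 after centring and 10 under each of the 4 other scalings and by the 2 rescaled ratios without a pseudocount. They became 6 with a pseudocount of 0.1, 6 by the deposited ratio without a pseudocount and 3 with an RPKM of 5 required. Over all genes the share past 2-fold higher went from 8.96% to 16.9% after centring, 19.1% with listed reads, 22.0% as TPM, 18.6% with TMM and 19.3% with median of ratios. By the ratio without a pseudocount that share was 11.7% as deposited, 18.7% centred and 21.9% scaled to the listed reads. With a pseudocount of 0.1 it was 11.5%, and with an RPKM of 5 required 6.80%. The 13 lower ones became 5 after centring, 8 when scaled to the listed reads and 8 with median-of-ratios size factors, and 7 with an RPKM of 5 required, which left 18 genes. They became 11 as TPM, 10 with TMM, 15 with a pseudocount of 0.1 and 12 by either rescaled ratio without a pseudocount. The deposited ratio without a pseudocount gave 15 lower. Over all genes the share past 2-fold lower went from 44.0% to 20.5% after centring and 25.7% with listed reads. It was 29.5% as TPM, 26.2% with TMM and 25.5% with median of ratios. With a pseudocount of 0.1 it was 51.2%, and with an RPKM of 5 required 48.7%. By the ratio without a pseudocount it was 51.9% as deposited, 34.7% centred and 30.9% scaled to the listed reads. TPM also changes the size of the pseudocount relative to the values. The list's median of -0.52 was 0.14, 0.20, 0.24, 0.16 and 0.21 under centring, listed reads, TPM, TMM and median of ratios, -0.72 with a pseudocount of 0.1, -0.19 without the filter and -0.63 with an RPKM of 5 required. The cause of these shifts was not tested beyond the change in scaling or genes. Notch2 ranged from -0.81 to 0.14, Rbpj from 0.34 to 1.34 and Maml1 from 0.53 to 1.57. Depth limits Notch1, Notch3, Jag1, Dll1 and Hes6, for which no difference was detectable. For Jag2, with 19 and 5 reads, the interval of the ratio was computed on the deposited scale only. No paired analysis was possible because each group has 1 library.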
